A study of Xenopus laevis with 15 samples.

Results

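The genes described here are targets of the transcription factor p53 and genes of the DNA damage response, measured in Xenopus laevis, the African clawed frog, after embryos were exposed to lead(II) nitrate. The set was defined as 24 gene symbols, and its members are the rows of the count table whose symbol in the authors' deposited table, without the final .L or .S, is one of them. The suffixes .L and .S mark homeologs, the related copies of a gene that the frog's duplicated genome keeps on its long and short chromosomes. By that rule 14 of the 37018 genes in the count table were members, 1 copy each of cdkn1a, mdm4, ccng1, gadd45a, gadd45g, tp53inp1, bax, btg2, plk2, rrm2b, aen, zmat3, polk and casp8. For 10 symbols the rule found no row. Among these, mdm2, gadd45b, sesn1, plk3, xpc, ddb2 and eda2r had rows under the symbols of the RefSeq gene table. No row carried bbc3, fas or phlda3 in either set of symbols, so these genes could not be analysed here. In addition, 20 rows carried a member symbol in RefSeq only, and they are given beside the members as further copies. The authors' table and RefSeq disagree on some suffixes. The members that the authors' table names gadd45a.L (Entrez 379224) and bax.L (Entrez 373637) are gadd45a.S and bax.S in RefSeq, and RefSeq gives the .L names to other rows.

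RNA came from pools of 3 whole embryos, and there were 3 groups of 5 libraries each, lettered A to E. The controls were kept in water alone, and the other groups were kept in lead(II) nitrate for 96 h, from 2 to 6 days after fertilization. The lead levels are written in ng/L in the titles and in µg/L in the protocol, with the same figures of 210 and 630. No unit is therefore given to the groups named lead 210 and lead 630. The embryos came from breeding pairs of a laboratory colony, with no transgene or mutation named. The labels do not say how many dishes or clutches a group had, and a p-value here measures only the spread between pools, which may be partly technical.

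p53 is held at a low level by its inhibitors MDM2 and MDM4 and is stabilized when kinases sense broken or stalled DNA. It then raises the transcription of genes that stop the cell cycle, such as cdkn1a, that repair DNA, that reduce oxidants and that start apoptosis, and also of mdm2, which closes a feedback loop. Part of this program, including gadd45 and btg2, can also be raised by other stress and growth signals, without p53.

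Library totals were 10.8 to 24.7 M counts (M, 1e+06), and 3 counts, the floor used here, were 0.122 to 0.277 CPM (counts per 1e+06 library counts). The floor covers counting error only. Every row of the 8 marker lists (blood, skeletal muscle, neurons, epidermis, liver, lens and retina, phagocytes, heart) had counts, as the label of whole body tissue requires. With edgeR's quasi-likelihood test at an adjusted p under 0.05, 1 of 11 blood marker rows rose at lead 630. There 1 of 12 liver rows and 1 of 7 lens or retina rows fell. Of all genes, 1.98% were called higher and 0.303% lower at that level. At lead 210, 0 markers were called, beside 1.76% and 0.144% of all genes. Median log2 fold changes at lead 630 and lead 210 were 0.27 and 0.21 for blood, -0.10 and -0.27 for liver, and -0.26 and -0.34 for lens and retina. The part of tissue makeup in the results below was not tested, and in whole embryos fewer cells of a type and less RNA per cell cannot be told apart. How reads of homeologs or other near-identical copies were assigned is not given in the sources used here, so the split of reads between copies is uncertain.

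No member passed the test against control at either lead level. At lead 630, 0 of 14 members were called higher and 0 lower, where 1.98% of all 27060 tested genes were called higher and 0.303% lower (2.28% in all). At lead 210 the count was again 0 of 14 in each direction, beside 1.76% called higher and 0.144% lower (1.9% in all). Of the 17 further copies that passed the filter on low counts, 0 were called at either level. With 14 genes, these background shares would leave fewer than 1 call, so a count of 0 does not set the members apart from other genes. The pools of a lead group and the controls were never wholly apart in a member. At lead 630 0 of 14 members were apart upward and 0 downward, beside 2.86% and 0.983% of all genes, and at lead 210 0 and 0, beside 2.94% and 1.06%. At an unadjusted p under 0.05, 0 members passed at lead 630 and 1 member, bax.L, passed at lead 210, beside 12.9% of all genes at each level. DESeq2, limma-voom and edgeR's likelihood-ratio test also called 0 members and 0 further copies in both comparisons. In the authors' deposited tables the lowest adjusted p among the 14 members was 0.353 at lead 630 and 0.137 at lead 210.

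The sizes of the differences were small as well as uncalled. The median log2 fold change of the members was 0.01 at lead 630 and 0.04 at lead 210, beside -0.01 and -0.00 over all tested genes. Of the 14 members, 7 had positive and 7 negative fold changes at lead 630, and 9 and 5 at lead 210. The 95% interval of the fold change lay inside a 2-fold change in both directions for all 14 members at both levels, and inside 1.5-fold for 11 members at lead 630 and 10 at lead 210. The highest upper limit was 1.88-fold at lead 630 and 1.99-fold at lead 210, in each case for aen.L. The lowest lower limit was 0.529-fold for tp53inp1.S at lead 630 and 0.611-fold for zmat3.L at lead 210. The same held for the 17 further copies, all of which had intervals inside 2-fold at both levels. A rise of 2-fold or more in any of these transcripts, averaged over the whole embryo, therefore lay outside the 95% interval of each gene taken alone. The plot of fold changes with their intervals shows how near to 0 most of them sat.

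**Figure D1:**
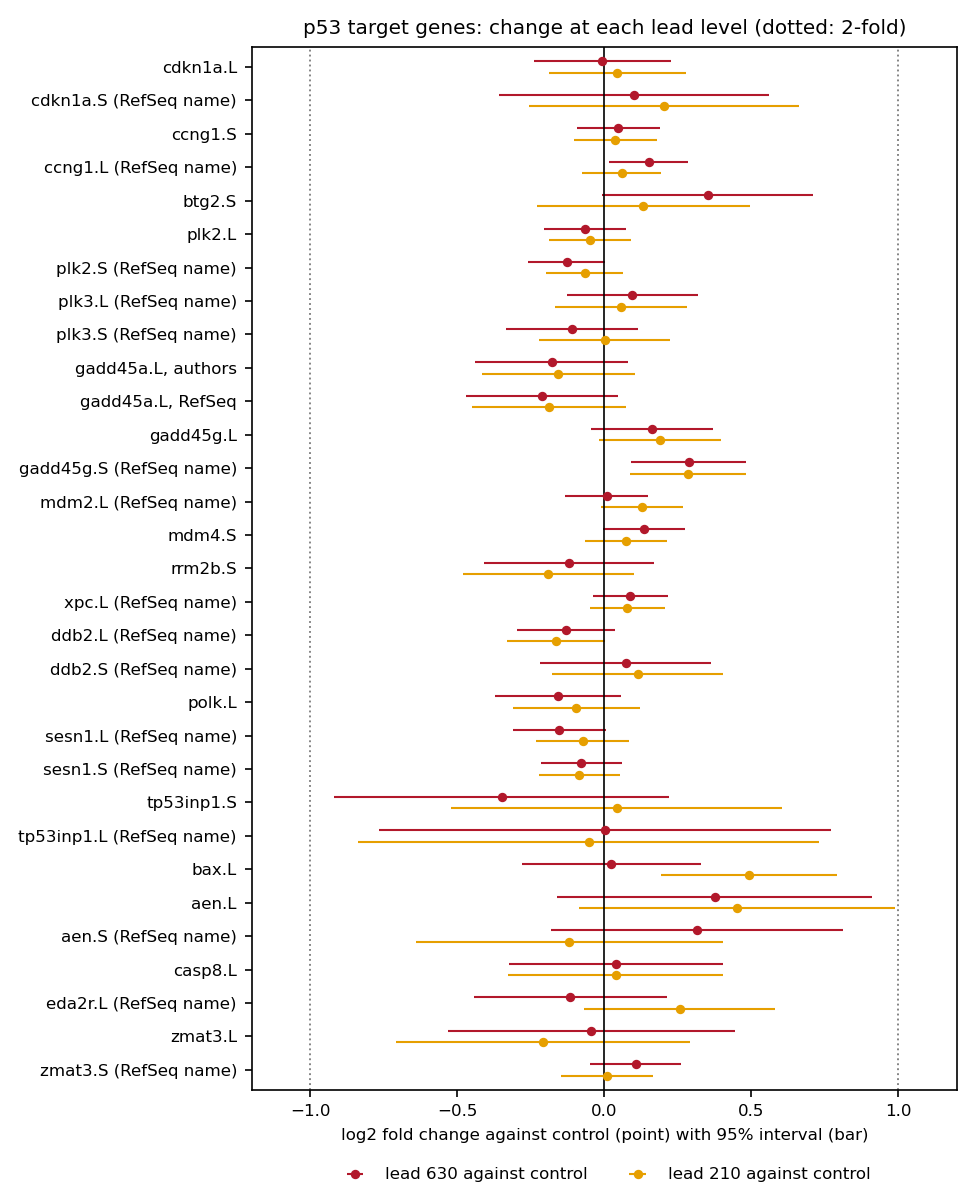
Log2 fold changes against control (x axis) of the members and further copies (y axis), with 95% intervals from edgeR's quasi-likelihood fit, for lead 630 and lead 210 (n = 5 pools a group). All intervals lie within 2-fold (log2 of -1 to 1), and bax.L at lead 210 has the highest estimate, 0.49.

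The arrest genes come at the head of the p53 program. cdkn1a encodes p21, the inhibitor of cyclin-dependent kinases that carries most of the p53-driven arrest in G1. cdkn1a.L (Entrez 492305) was at 10.8, 10.2, 8.35, 8.74 and 9.81 CPM in controls A to E, at 12.0, 9.73, 10.1, 9.27 and 8.29 at lead 210, and at 9.61, 7.87, 10.3, 10.04 and 9.65 at lead 630. The 3 groups overlapped almost wholly, with the highest value in lead 210 A and the lowest in lead 630 B. The log2 fold change was -0.01 ± 0.11 (SE) at lead 630 (95% interval 0.847- to 1.17-fold, adjusted p 0.992) and 0.04 ± 0.11 at lead 210 (0.877- to 1.21-fold, adjusted p 0.912). The further copy cdkn1a.S, which RefSeq names, had 3.43, 4.83, 3.68, 3.48 and 2.27 CPM in controls, 5.00, 4.39, 5.09, 3.54 and 2.39 at lead 210, and 3.66, 4.97, 4.15, 2.78 and 3.35 at lead 630. Its groups overlapped too, and its log2 fold changes were 0.10 ± 0.22 and 0.20 ± 0.22 at lead 630 and lead 210 (adjusted p 0.908 and 0.751). Its interval was wider and reached 1.47-fold at lead 630 and 1.58-fold at lead 210.

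Cyclin G1, encoded by ccng1, is an early p53 target that in mammals recruits a phosphatase to MDM2. ccng1.S, the member, had 42.5, 39.8, 47.0, 41.5 and 45.9 CPM in controls, 44.4, 43.7, 46.8, 42.9 and 44.8 at lead 210, and 43.0, 43.0, 45.2, 51.9 and 41.1 at lead 630. Only lead 630 D lay above the control range. Its log2 fold change was 0.05 ± 0.07 at lead 630 and 0.04 ± 0.07 at lead 210 (adjusted p 0.842 and 0.870), with upper limits of 1.14-fold and 1.13-fold. The further copy ccng1.L had 326, 344, 345, 344 and 299 CPM in controls, 344, 349, 350.0, 375 and 310.2 at lead 210, and 385, 350.0, 382, 356 and 369 at lead 630. All 5 lead 630 pools lay above all 5 controls, while lead 210 overlapped both groups. It was the only one of the 14 members and 17 further copies with lead 630 wholly above control, beside 2.86% of all genes. None lay wholly below, beside 0.983% of all genes. The difference at lead 630 was 0.15 ± 0.06 on the log2 scale (1.01- to 1.22-fold, p 0.0298) and did not pass after adjustment (adjusted p 0.305). At lead 210 it was 0.06 ± 0.06 (adjusted p 0.750).

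The rule for printing library values covered cdkn1a, mdm2 and ccng1, and the genes whose library values follow beside mdm2 were chosen after their values were seen. btg2 encodes an antiproliferative protein that recruits the deadenylation machinery to mRNA. btg2.S had 27.0, 31.5, 28.3, 28.6 and 27.4 CPM in controls, 27.4, 26.6, 37.2, 35.7 and 29.2 at lead 210, and 36.2, 57.6, 26.0, 31.0 and 32.0 at lead 630. At lead 630 pool B stood far above the rest and pool C lay below all controls. The log2 fold change at lead 630, 0.35 ± 0.17, had the lowest adjusted p of the members in that comparison, 0.403, and was 0.13 without lead 630 B. At lead 210 it was 0.13 ± 0.17 (adjusted p 0.799). DESeq2 and the likelihood-ratio test gave btg2.S an unadjusted p under 0.05 at lead 630, and limma-voom did not.

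The polo-like kinases PLK2 and PLK3 are induced by stress and take part in checkpoint control. For plk2.L the log2 fold changes were -0.07 ± 0.07 at lead 630 and -0.05 ± 0.07 at lead 210, and for the further copy plk2.S they were -0.13 ± 0.06 (adjusted p 0.399) and -0.07 ± 0.06. plk2.L was the steadiest member among controls, with a coefficient of variation of 4.52%. The further copies of plk3 gave 0.10 ± 0.11 (plk3.L) and -0.11 ± 0.11 (plk3.S) at lead 630, and 0.06 ± 0.11 and 0.00 ± 0.11 at lead 210. None of the 4 passed the test at either level.

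**Figure D2:**
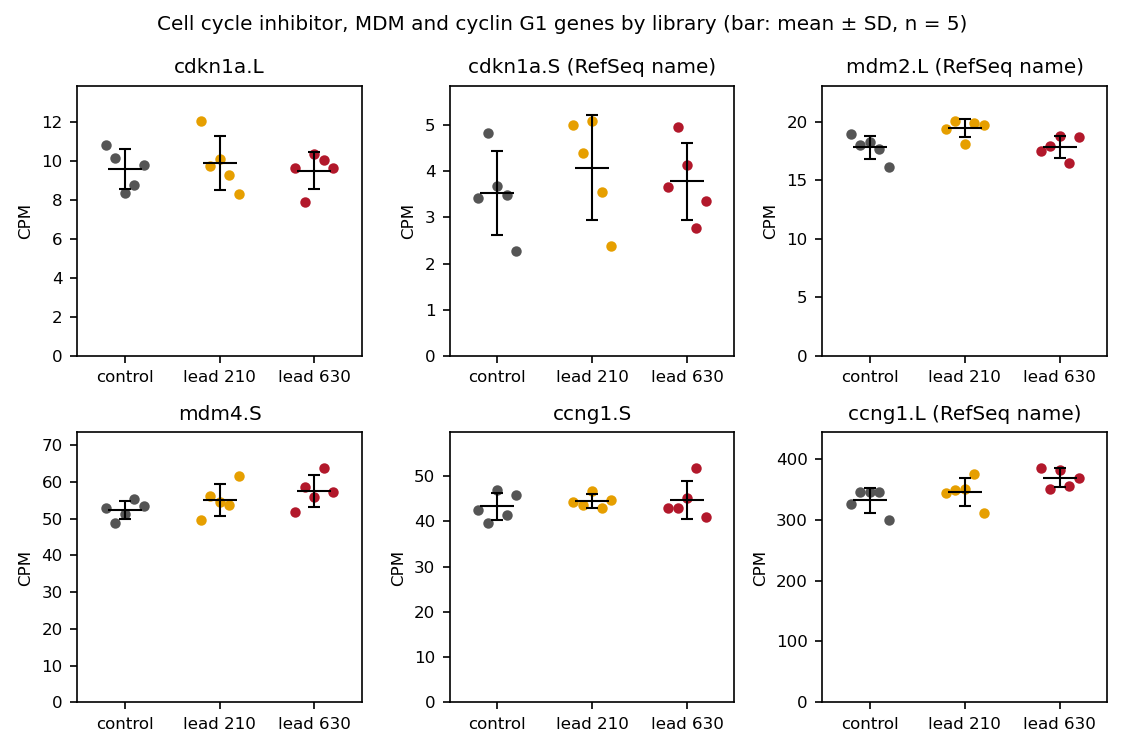
CPM of each pool (y axis, points) by group (x axis) for the copies of cdkn1a and ccng1 and for mdm2.L and mdm4.S, with group means and SD (n = 5). The lead groups overlap the controls in each panel except at lead 630 for ccng1.L, where the pools (350.0 to 385 CPM) lie above the controls (299 to 345 CPM).

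MDM2 and MDM4 are the inhibitors of p53, and mdm2 is also one of its best known targets. The 1 mdm2 row, mdm2.L in RefSeq, had 18.9, 18.0, 18.2, 17.6 and 16.2 CPM in controls, 19.4, 20.05, 18.1, 19.9 and 19.7 at lead 210, and 17.5, 17.9, 18.8, 16.5 and 18.7 at lead 630. The lead 630 pools fell inside the control range, and 4 of 5 lead 210 pools lay above it. The log2 fold change was 0.01 ± 0.07 at lead 630 (0.912- to 1.11-fold, adjusted p 0.978) and 0.13 ± 0.07 at lead 210 (0.991- to 1.204-fold, adjusted p 0.439). mdm4.S, whose product binds p53 but is itself a poor ubiquitin ligase, had 52.4 ± 2.43 CPM in controls (SD, n = 5), 55.1 ± 4.35 at lead 210 and 57.5 ± 4.43 at lead 630. Its log2 fold changes were 0.07 ± 0.07 (adjusted p 0.699) and 0.14 ± 0.07 (adjusted p 0.408).

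The GADD45 proteins are small stress sensors that activate stress kinases and take part in DNA repair and demethylation. The rows of gadd45g had positive fold changes at both levels and the rows of gadd45a had negative ones, none of them past the test. gadd45g.L had 20.4, 24.5, 24.0, 22.3 and 19.9 CPM in controls, 22.1, 26.5, 27.6, 24.4 and 26.3 at lead 210, and 26.7, 29.3, 19.5, 25.8 and 23.8 at lead 630. The groups overlapped, with lead 630 C below every control. Its log2 fold changes were 0.16 ± 0.10 at lead 630 and 0.19 ± 0.10 at lead 210 (adjusted p 0.541 and 0.436). The further copy gadd45g.S had 19.2, 20.6, 19.2, 18.0 and 17.5 CPM in controls, 22.3, 20.4, 23.8, 22.4 and 26.1 at lead 210, and 28.2, 23.8, 20.9, 23.6 and 19.4 at lead 630. In each lead group 4 of 5 pools lay above all controls. The difference was 0.29 ± 0.09 at lead 630 (1.07- to 1.40-fold, p 0.00658, adjusted p 0.148) and 0.28 ± 0.09 at lead 210 (p 0.00731, adjusted p 0.169). Both comparisons use the same controls. Without lead 630 A the difference at lead 630 was 0.21, and over the runs that left out 1 pool its adjusted p ranged from 0.0642 to 0.318.

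The gadd45a member (Entrez 379224) had 7.26, 8.95, 6.57, 6.56 and 6.70 CPM in controls, 5.29, 6.44, 6.05, 7.27 and 7.10 at lead 210, and 5.86, 7.87, 6.03, 5.93 and 6.13 at lead 630. At lead 630, 4 of 5 pools lay below all controls and pool B lay among the highest. The log2 fold change was -0.18 ± 0.12 at lead 630 and -0.16 ± 0.12 at lead 210 (adjusted p 0.613 and 0.651). The row that RefSeq names gadd45a.L (Entrez 108714209) had -0.21 ± 0.12 and -0.19 ± 0.12 (adjusted p 0.523 and 0.570). Its pools ranged from 4.80 to 7.60 CPM in controls, from 4.98 to 6.23 at lead 210 and from 5.09 to 6.04 at lead 630. Both gadd45b rows were too low to be tested. Over the 5 pools of a group, gadd45b.L had 9 counts in controls, 13 at lead 210 and 11 at lead 630, and gadd45b.S had 7, 12 and 8.

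**Figure D3:**
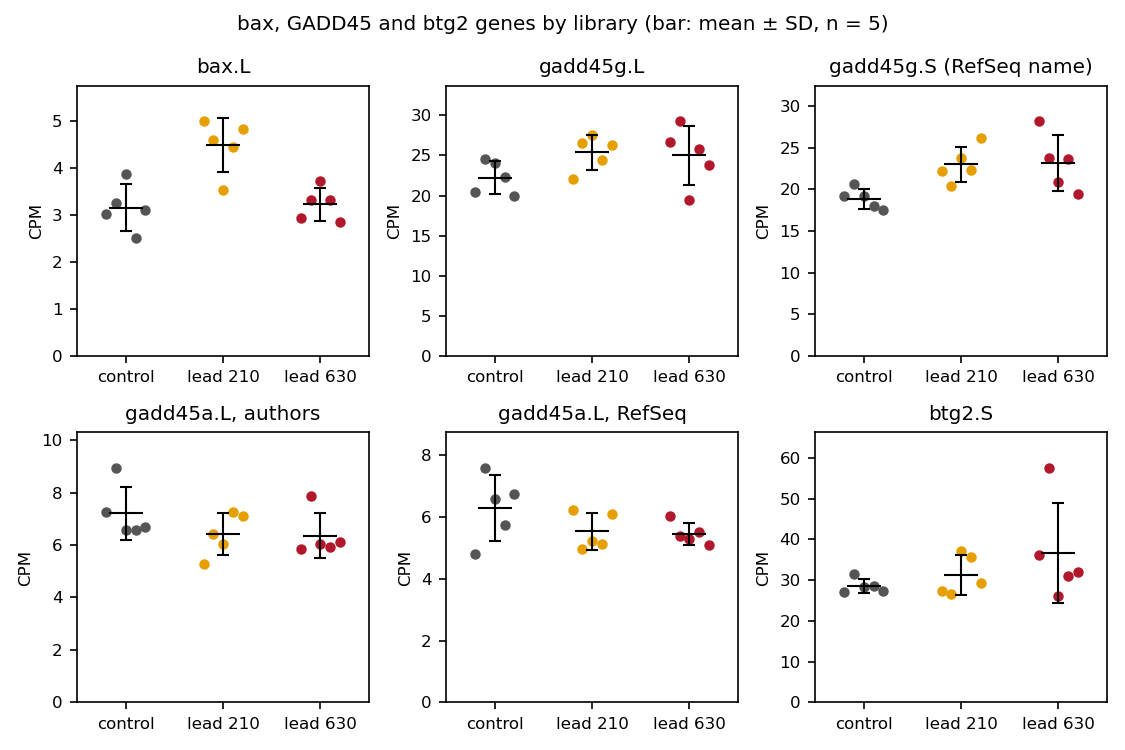
CPM of each pool (y axis, points) by group (x axis) for bax.L, the rows of gadd45g and gadd45a, and btg2.S, with group means and SD (n = 5). For bax.L, 4 of the 5 lead 210 pools (4.45 to 5.00 CPM) lie above all controls (2.51 to 3.89 CPM) and above all lead 630 pools (2.86 to 3.73 CPM), and 1 lead 630 pool of btg2.S reaches 57.6 CPM.

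Of the members that act on DNA or its building blocks, none was called. rrm2b.S encodes the p53-inducible small subunit of ribonucleotide reductase, which supplies deoxynucleotides for repair, and it was at 16.8 ± 2.22 CPM in controls, 14.6 ± 2.22 at lead 210 and 15.3 ± 3.18 at lead 630. Its log2 fold changes were -0.19 ± 0.14 at lead 210 and -0.12 ± 0.14 at lead 630 (adjusted p 0.613 and 0.795). polk.L, which encodes the lesion-bypassing DNA polymerase kappa, was at 9.31 ± 0.840 CPM in controls, 8.68 ± 0.688 at lead 210 and 8.32 ± 0.957 at lead 630, with -0.09 ± 0.10 and -0.16 ± 0.10 (adjusted p 0.753 and 0.579). XPC and DDB2 recognise distorted DNA at the start of nucleotide excision repair. xpc.L, a further copy, was at 60.4 ± 3.497 CPM in controls and gave 0.09 ± 0.06 at lead 630 and 0.08 ± 0.06 at lead 210. ddb2.L gave -0.13 ± 0.08 and -0.16 ± 0.08 (adjusted p 0.542 and 0.403), and ddb2.S gave 0.07 ± 0.14 and 0.11 ± 0.14. The control values of ddb2.L lay close together, 11.0 ± 0.181 CPM, a coefficient of variation of 1.65% that was the lowest of the further copies. These pools had 137 to 271 counts, for which counting error alone is larger. The value is therefore no measure of how even the embryos were.

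Sestrin 1 restrains the growth kinase complex mTORC1, and TP53INP1 promotes p53 activity and autophagy. sesn1.L was at 146 ± 12.6 CPM in controls, 138 ± 6.83 at lead 210 and 131 ± 12.7 at lead 630, with log2 fold changes of -0.07 ± 0.08 and -0.15 ± 0.08 (adjusted p 0.736 and 0.414). sesn1.S gave -0.08 ± 0.07 at both levels. The copies of tp53inp1 were low and scattered. tp53inp1.S was at 2.41 ± 0.661 CPM in controls, 2.52 ± 0.776 at lead 210 and 1.91 ± 0.630 at lead 630, and the difference at lead 630, -0.35 ± 0.27, was the most negative of the members (adjusted p 0.664). tp53inp1.L stayed under 1 CPM on average in each group, and its intervals reached 1.71-fold at lead 630 and 1.66-fold at lead 210.

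Among the genes of cell death, bax.L had the largest difference and the lowest p of all members in any comparison. BAX is the protein that opens the outer mitochondrial membrane and lets cytochrome c escape. bax.L had 3.03, 3.27, 3.89, 2.51 and 3.10 CPM in controls, 5.00, 4.61, 3.54, 4.45 and 4.84 at lead 210, and 2.93, 3.31, 3.73, 3.33 and 2.86 at lead 630. At lead 210, 4 of 5 pools were above every control and every lead 630 pool, and pool C lay inside the control range. The means were 3.16 ± 0.496 CPM in controls, 4.49 ± 0.571 at lead 210 and 3.23 ± 0.352 at lead 630. The log2 fold change at lead 210 was 0.49 ± 0.14 (1.14- to 1.73-fold, p 0.00272) and did not pass after adjustment (adjusted p 0.0971). No alternative processing brought it past the threshold, and the adjusted p nearest to it was 0.0543. At lead 630 it was 0.02 ± 0.15 (0.823- to 1.26-fold, adjusted p 0.969). Compared directly, lead 630 was lower than lead 210 by -0.47 ± 0.14 on the log2 scale (p 0.0039), with an adjusted p of 0.932. In the authors' deposited table the adjusted p of bax.L at lead 210 was 0.137. The row that RefSeq names bax.L (Entrez 108696744) had 36 counts over the controls, 21 over lead 210 and 29 over lead 630 and was not tested.

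AEN is a nuclease that p53 induces and that helps to degrade DNA in apoptosis. aen.L had 1.72, 2.13, 1.28, 1.38 and 1.39 CPM in controls, 2.75, 1.54, 1.92, 2.00 and 2.52 at lead 210, and 3.48, 1.66, 2.35, 1.57 and 1.37 at lead 630. Its highest pool was lead 630 A, and the groups overlapped. Its log2 fold changes, 0.38 ± 0.25 at lead 630 and 0.45 ± 0.26 at lead 210, had adjusted p of 0.603 and 0.482, and the further copy aen.S gave 0.32 ± 0.24 and -0.12 ± 0.25. casp8.L encodes caspase 8, the initiator caspase of death receptor signalling, and gave 0.04 ± 0.17 at both levels. eda2r.L encodes a receptor of the tumour necrosis factor family that p53 induces. It was at 5.67 ± 0.540 CPM in controls, 6.83 ± 1.02 at lead 210 and 5.30 ± 1.27 at lead 630, with -0.12 ± 0.16 at lead 630 and 0.26 ± 0.15 at lead 210 (adjusted p 0.833 and 0.517). ZMAT3 is an RNA-binding protein that acts in splicing downstream of p53, and zmat3.L gave -0.04 ± 0.23 and -0.21 ± 0.24, while the more highly counted zmat3.S gave 0.11 ± 0.07 and 0.01 ± 0.07.

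Lead 630 and lead 210 were also compared with each other. No gene in the whole table was called, 0% of 27060, and so 0 of 14 members and 0 of 17 further copies. Nor were the pools of the 2 levels wholly apart in any member, beside 0.37% of all genes apart upward and 0.281% downward. DESeq2, limma-voom and the likelihood-ratio test also called 0 of them. At an unadjusted p under 0.05, 1 member (bax.L) and 1 further copy (eda2r.L, -0.37 ± 0.16, p 0.0275) passed by edgeR's quasi-likelihood test, beside 4.66% of all genes. The median log2 fold change of the members was -0.02, beside 0.00 over all genes, and 6 members had positive and 8 negative values. bax.L (Entrez 373637) and eda2r.L were picked by this p, and both values were negative. A mean at lead 210 above that at lead 630 follows from that pick. Their control means were also below those at lead 210. The row that RefSeq names bax.L (Entrez 108696744), too low to be tested, had its lowest mean at lead 210. It was at 0.255 CPM there, 0.422 in controls and 0.358 at lead 630.

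Where both homeologs were counted, the difference between their responses was tested by itself, as the log2 ratio of .L to .S in each pool, with limma over 7076 pairs named by RefSeq. The 11 pairs were cdkn1a, ccng1, gadd45a, gadd45g, sesn1, tp53inp1, plk2, plk3, ddb2, aen and zmat3. For 0 of 11 pairs did the ratio differ from control at lead 630, where 1.05% of all pairs were called, or at lead 210, where 0.904% were, and 0 of 11 had an unadjusted p under 0.05 at either level. The lowest p was that of ddb2 at lead 210, where the ratio differed by -0.26 on the log2 scale (95% interval -0.56 to 0.04, p 0.0823, adjusted p 0.611). For aen at lead 210 the ratio differed by 0.53 (95% interval -0.11 to 1.16, p 0.0975, adjusted p 0.631). For cdkn1a the interval was -0.57 to 0.34 at lead 630, and for ccng1, with its much larger counts, it was -0.07 to 0.28.

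The spread of the members between pools of a group was of similar size in the 3 groups, and a difference in spread was not tested. The median coefficient of variation over the 14 members was 11.9% in controls, 12.6% at lead 210 and 13.99% at lead 630. It ran from 4.52% (plk2.L) to 27.4% (tp53inp1.S) in controls, from 3.29% (ccng1.S) to 33.1% (zmat3.L) at lead 210, and from 7.70% (mdm4.S) to 41.3% (aen.L) at lead 630. In the heat map, lead 630 B is high for btg2.S, lead 630 A is high for aen.L and lead 630 D is low for tp53inp1.S. No pool is high in every member.

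**Figure D4:**
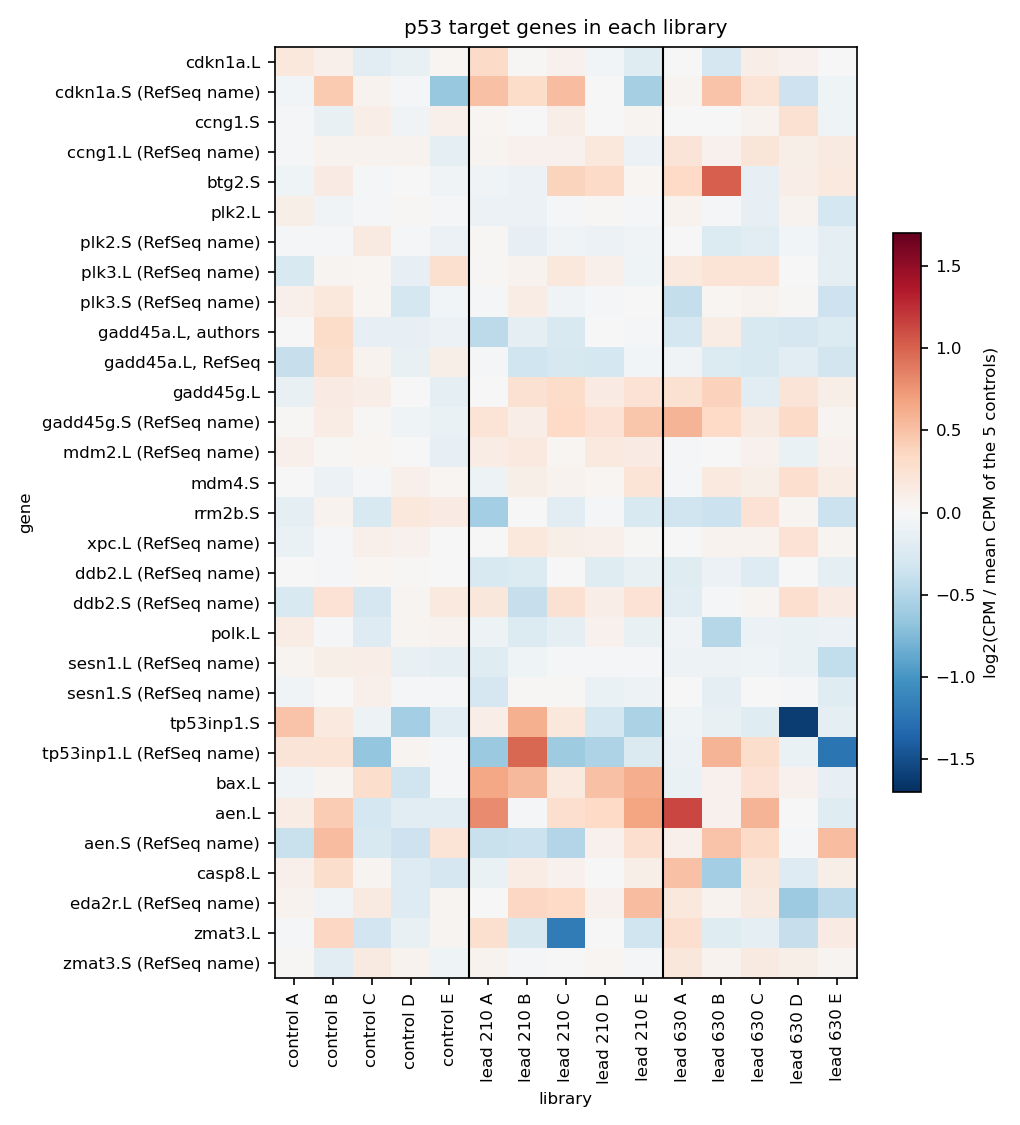
Log2 CPM of each member and further copy (rows) in each of the 15 pools (columns), as the log2 ratio to the mean CPM of the 5 controls on a colour scale. The lead columns show scattered high and low cells, such as lead 630 B for btg2.S, and no column that is high throughout.

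The wider pathway was read from 8 lists that leave out the members. By edgeR's quasi-likelihood test, 12.9% of all genes had an unadjusted p under 0.05 at each level. Of 35 rows of other p53 targets, 0 rose and 0 fell at either level, with medians of 0.01 and 0.04 and 3 and 4 rows at an unadjusted p under 0.05. Among them fdxr.L, for the mitochondrial ferredoxin reductase, gave 0.31 ± 0.10 at lead 630 (adjusted p 0.122), and ei24.S, for an autophagy-linked membrane protein, gave 0.34 ± 0.12 at lead 210 (adjusted p 0.187). Of 30 rows of damage sensors and checkpoint kinases, 0 rose and 0 fell, with medians of 0.01 and 0.03 and 4 and 3 rows at an unadjusted p under 0.05. nbn.L, of the break-sensing MRN complex, gave 0.30 ± 0.10 at lead 630 (adjusted p 0.173), and h2ax.S, for the histone that is phosphorylated at breaks, gave -0.23 ± 0.07 at lead 210 (adjusted p 0.136). The list of cell cycle inhibitors, cyclins and RB genes had 0 of 21 called at either level, medians of 0.00 and -0.00, and 0 rows at an unadjusted p under 0.05. Its lowest p were those of ccnd1.S at lead 630 (-0.32 ± 0.17, adjusted p 0.473) and cdkn2d.S at lead 210 (-0.16 ± 0.10, adjusted p 0.552). DESeq2, limma-voom and the likelihood-ratio test called 0 rows of these 3 lists at either level.

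Repair genes gave 1 call in each of 2 lists, both upward and both by less than 1.5-fold. A count of 1 in a list of this size is near the share of all genes called higher, 1.98% at lead 630 and 1.76% at lead 210. The counts at an unadjusted p under 0.05 stand beside 12.9% of all genes at each level. Of 29 rows of excision repair genes, 1 rose and 0 fell at each level, with medians of 0.08 at lead 630 and 0.07 at lead 210 and 6 and 3 rows at an unadjusted p under 0.05. The gene was rad23b.L, whose product stabilizes XPC, at 53.4 ± 1.69 CPM in controls, 65.3 ± 1.93 at lead 210 (0.29 ± 0.05, adjusted p 0.00398) and 62.0 ± 3.94 at lead 630 (0.21 ± 0.05, adjusted p 0.0409). At lead 630 it was no longer called once control A, C, D or E, or lead 630 pool A, B or C, was removed (adjusted p 0.07 to 0.114). Nor was it called there with no filter on low counts, with library size only, by the likelihood-ratio test, in a fit of the 2 groups alone or with summed homeologs (adjusted p 0.0616 to 0.113). At lead 210 summed homeologs ended the call (adjusted p 0.111). DESeq2 called rad23b.S as well as rad23b.L higher at lead 630, while limma-voom called rad23b.L alone. Of 30 rows of break, crosslink and mismatch repair genes, 1 rose and 0 fell at each level, with medians of 0.02 and 0.01 and 2 and 5 rows at an unadjusted p under 0.05. It was prkdc.L, for the DNA-dependent protein kinase of end joining, at 36.4 ± 1.93 CPM in controls, 42.6 ± 1.81 at lead 210 (0.23 ± 0.05, adjusted p 0.0317) and 44.6 ± 1.39 at lead 630 (0.30 ± 0.05, adjusted p 0.00345). At lead 210 it was no longer called once control A, B, C or E, or lead 210 pool A, B or D, was removed (adjusted p 0.0551 to 0.118), nor with no filter on low counts or in a fit of the 2 groups alone (adjusted p 0.0556 and 0.0622).

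The apoptosis machinery list had 2 of 33 rows higher and 0 lower at lead 630, with a median of -0.03. At lead 210, 0 of 33 were called, with a median of 0.06. Of all genes, 1.98% were called higher at lead 630 and 1.76% at lead 210. At an unadjusted p under 0.05 there were 7 rows at lead 630 and 5 at lead 210, beside 12.9% of all genes at each level. Both calls were cytochrome c, a carrier of the respiratory chain that also activates caspases once outside the mitochondrion. cycs.L was at 41.6 ± 6.56 CPM in controls and 68.3 ± 11.8 at lead 630 (0.72 ± 0.14, adjusted p 0.0113), and cycs.S was at 67.6 ± 7.59 and 93.8 ± 14.1 (0.48 ± 0.11, adjusted p 0.0266). At lead 630 cycs.L was no longer called with the letter as a replicate block (adjusted p 0.0647). cycs.S was no longer called once control A, control C or lead 630 pool A, C or E was removed (adjusted p 0.0667 to 0.0877). At lead 210 cycs.L gave 0.58 ± 0.14 with an adjusted p of 0.0532, and DESeq2 and the likelihood-ratio test called it there while limma-voom did not. Whether the response of cycs.L differs between the levels was tested directly, and lead 630 against lead 210 gave 0.14 ± 0.14 (adjusted p 0.932).

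Proliferation markers had the most one-sided fold changes of the 8 lists. All 30 rows had negative values at lead 630, with a median of -0.24. At lead 210, 29 of 30 did, with a median of -0.28. All genes had medians of -0.01 and -0.00. The same controls enter both comparisons, so the signs at lead 630 and lead 210 are not independent. The rows include homeologs and are not independent of each other either. At lead 630, 0 of 30 rows were called by edgeR's quasi-likelihood test, beside 0.303% of all genes called lower. The other tools also called 0 rows there. At an unadjusted p under 0.05 by the quasi-likelihood test, 7 rows passed at lead 630 and 8 at lead 210, beside 12.9% of all genes. At lead 210, 2 of 30 rows fell and 0 rose, beside 0.144% of all genes called lower and 1.76% called higher. cdk1.L, for the kinase that starts mitosis, was at 7.69 ± 0.9495 CPM in controls and 5.25 ± 1.01 at lead 210 (-0.56 ± 0.13, adjusted p 0.0349). mcm5.S, of the replicative helicase, was at 5.72 ± 0.724 and 3.65 ± 0.700 (-0.64 ± 0.16, adjusted p 0.0397). Neither call held in most of the runs that left out 1 pool. cdk1.L was no longer called once control A, C, D or E, or lead 210 pool A, D or E, was removed (adjusted p 0.0551 to 0.0982). Nor was it called in a fit of the 2 groups alone (adjusted p 0.0752) or with the letter as a replicate block (adjusted p 0.0504). For mcm5.S this held on removal of control A, B, D or E, or of lead 210 pool A, C, D or E (adjusted p 0.0627 to 0.124), and also with library size only and with summed homeologs (adjusted p 0.0521 and 0.131). The levels of cdkn1a are given above, neither copy was called, and a link between them and these values was not tested.

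The integrated stress response list holds the genes of the transcription factors ATF4 and CHOP and targets of these factors. Of its rows, 3 of 20 were called higher and 0 lower at each level. Of all genes, 1.98% were called higher at lead 630 and 1.76% at lead 210. The list medians were 0.05 at lead 630 and -0.00 at lead 210. At lead 630, 13 rows had positive and 7 negative values, and at lead 210, 10 and 10. Activity of ATF4 or CHOP was not tested. At an unadjusted p under 0.05, 5 rows passed at each level by edgeR's quasi-likelihood test, beside 12.9% of all genes. slc7a11.S, for the cystine importer, was at 0.445 ± 0.163 CPM in controls, 2.76 ± 1.00 at lead 210 (2.64 ± 0.36, adjusted p 8.78e-05) and 2.85 ± 0.941 at lead 630 (2.67 ± 0.36, adjusted p 5.91e-05). Its control level was not far above the floor, which was 0.124 to 0.239 CPM in the control libraries. The size of its fold change is therefore uncertain. ddit3.L, which encodes CHOP, was at 13.4 ± 1.97 CPM in controls, 18.4 ± 1.96 at lead 210 (0.45 ± 0.10, adjusted p 0.0286) and 19.6 ± 1.84 at lead 630 (0.55 ± 0.10, adjusted p 0.00465). cebpb.L, for a stress and inflammation transcription factor, was at 27.1 ± 3.93, 37.3 ± 4.97 (0.46 ± 0.11, adjusted p 0.0253) and 38.0 ± 4.14 CPM (0.49 ± 0.11, adjusted p 0.0148) in the same order. At lead 210 ddit3.L was no longer called once control A, B or E, or lead 210 pool A, C, D or E, was removed (adjusted p 0.056 to 0.105). For cebpb.L this held on removal of control A, C, D or E, or of lead 210 pool A or E (adjusted p 0.0542 to 0.0897), and at lead 630 of control A or lead 630 pool C (adjusted p 0.0517 and 0.0544). slc7a11.S was called in each of these runs. The other homeolog, ddit3.S, was called higher at lead 210 by DESeq2 and the likelihood-ratio test, and not by limma-voom. In none of the 8 lists was a row called between lead 630 and lead 210, by edgeR or by the other tools.

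**Figure D5:**
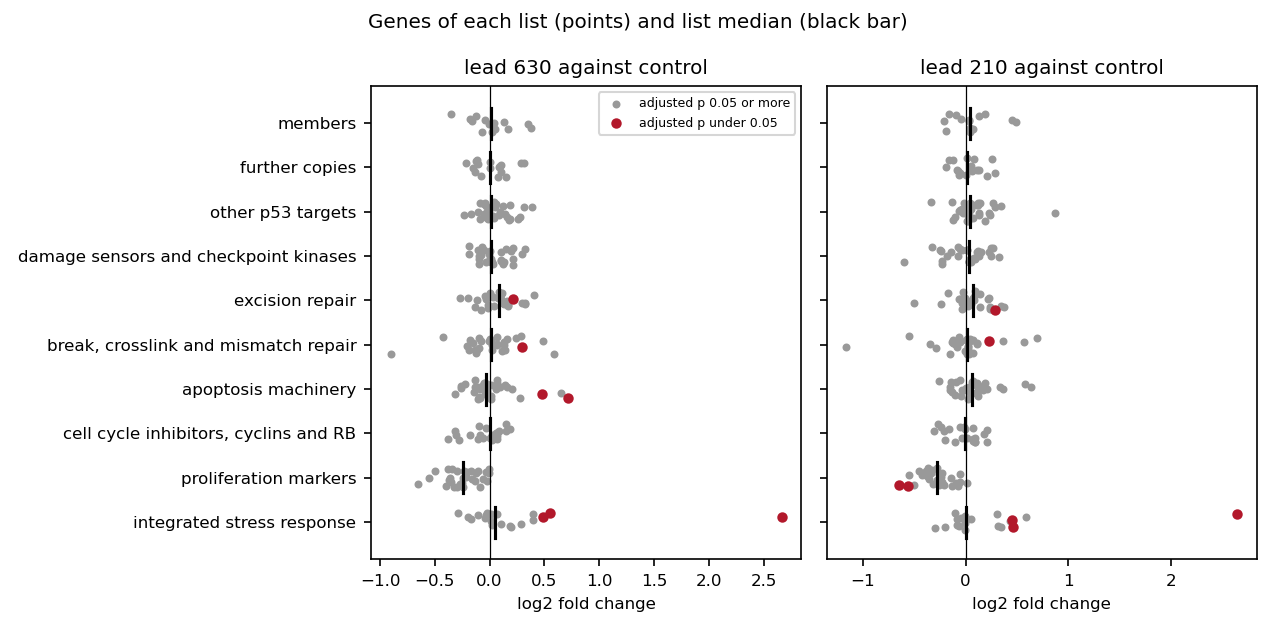
Log2 fold changes against control (x axis) of each tested row of the members, further copies and 8 pathway lists (y axis), at lead 630 and lead 210, with a black bar at each median and called rows in red. The members centre near 0 (medians 0.01 and 0.04), and the proliferation markers lie to the left (medians -0.24 and -0.28).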

How the data were processed

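Libraries were made from poly(A) RNA with a directional kit, per the labels' protocols. Trim Galore, HISAT2, kallisto and edgeR are named in the submitters' processing notes, and the build, the annotation, the counter and its use of strand are not named there. Raw counts were deposited for 37018 Entrez genes, and 3220 of these were empty in every library. For 28950 genes the authors' deposited tables of each lead level against control hold p-values, raw and adjusted, log2 fold changes, mean CPM on the log2 scale and the likelihood-ratio score.

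The test was edgeR's quasi-likelihood test (version 4.0.16, R 4.3.3). filterByExpr kept 27060 genes, TMM factors were 0.977 to 1.03, and 1 robust fit held the 15 libraries with no term but the group (biological coefficient of variation 0.142). Adjustment was by Benjamini-Hochberg over these genes, and a gene was called at an adjusted p under 0.05. CPM is per TMM-scaled library size, as mean ± SD (n = 5). Fold changes are log2 estimates ± SE, and the SEs and 95% intervals come from the fit's weights and its quasi-likelihood variance. CPM is not scaled by gene length, so levels are not compared between genes. Homeolog pairs came from RefSeq symbols (assembly Xenopus_laevis_v10.1, 33597 identifiers matched), since the authors' symbols rarely name both copies, and their log2 CPM differences (prior count 2) were tested with limma 3.58.1. Rows of a pathway list carry a list symbol in either source, and some genes stand in more than 1 list.

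Members and lists were chosen with earlier results of these data known. The rule printed library values for called members, of which there were none, and for cdkn1a, mdm2 and ccng1, and those of btg2, gadd45g, gadd45a, bax and aen were added after their values were seen. Called list genes were named, or, where none was called, the row with the lowest p. A gene that the rule names, and the list that holds it, are not reported here. No 2 libraries of a group were duplicates (chi-square per gene 4.11 to 16.3 over 30 pairs). Alternatives were other filters, normalizations and tools (DESeq2 1.42.0, limma-voom, likelihood-ratio test), fits on 2 groups, a replicate block, leaving out 1 library at a time, and counts summed over homeologs.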

Additional observations from a re-analysis of the deposited data

Results flagged for a closer look

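Over 93 groups of 5 pools (31 tested rows in 3 groups), 8 held 1 pool that stood apart from the others by Dixon's criterion at 95%, which chance gives in about 1 of 20 groups. At lead 630, pool B of the gadd45a member (Entrez 379224) had 7.87 CPM, the others 5.86 to 6.13. Pool B of polk.L had 6.63 CPM, the others 8.65 to 8.97. These are a high and a low value in the same library. At lead 630 pool D had 0.786 CPM for tp53inp1.S and 71.7 CPM for xpc.L, where the others had 60.7 to 63.1 CPM for xpc.L. For sesn1.L, pool E at lead 630 had 109 CPM, the others 134 to 139, and pool A at lead 210 had 126 CPM, the others 139 to 143. Pool B at lead 210 had 5.93 CPM for ddb2.S, the others 8.41 to 9.29, and 1.54 CPM for tp53inp1.L, the others 0.507 to 0.663. None of these rows was called in any comparison, with the pool or without it.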

How the results depend on the processing

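The counts of members and further copies called stayed at 0 in each comparison under all 20 alternatives run, and that of homeolog pairs under the 17 run for it (a prior count of 0.5, the replicate block and leaving out each of 15 libraries). Over 280 member values in each comparison, the sign changed in 18 (lead 630), 8 (lead 210) and 30 (lead 630 against lead 210), and the lowest adjusted p were 0.231, 0.0543 and 0.499. The count of pathway genes called at lead 630, 7, was 4 to 7 with 1 library left out, and was 4 without control A or lead 630 C. At lead 210 the count, also 7, was 2 to 7, with 2 without control A, control E or lead 210 A, and 3 or 4 without control C, control D, lead 210 D or lead 210 E. These are totals in each run and not always the same genes, since cycs.L, which is none of the 7 at lead 210, was called there in 2 of the 10 runs. The cause was not tested. Over all genes at lead 210, 775 were called by DESeq2 beside 515, and for lead 630 against lead 210 DESeq2 and the likelihood-ratio test each called 6 and the run without lead 630 E called 1, beside 0.

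The labels give no meaning to the shared replicate letters. To see whether same-letter pools deviate together, the log2 CPM of each tested gene was taken as its deviation from the group mean. These deviations, not the levels themselves, were then correlated between pools. Same-letter pools of different groups had correlations of -0.118 to 0.311 (median 0.119), and 8 of 15 pairs were over 0.1. Pools of different groups and different letters had -0.372 to 0.321 (median -0.016), and 9 of 60 pairs were over 0.1. Of the 15 libraries, 6 had their highest mean correlation of deviations with the pools of their own letter. With the letter as a replicate block, 0 members were called in each comparison, 6 pathway genes were called at each level, and neither cycs.L at lead 630 (adjusted p 0.0647) nor cdk1.L at lead 210 (0.0504) was called.

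Low counts kept the gadd45b rows and the RefSeq bax.L row out of the test. At lead 630 the intervals of 3 members passed 1.5-fold, those of tp53inp1.S and aen.L, with 2.41 and 1.58 CPM in controls, and that of btg2.S, with 28.5 CPM. That of zmat3.L, with 1.51 CPM in controls, stayed inside it (0.691- to 1.36-fold). The part of depth in these widths was not tested.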
